A study of Bos taurus with 23 samples.

Results

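Peripheral white blood cells (PWBC) are the nucleated cells of circulating blood, mainly lymphocytes, neutrophils and monocytes with fewer eosinophils and basophils, and their RNA is a mixture in which each cell type adds its own transcripts. In libraries made from a buffy coat, immature red cells and platelets can add transcripts of their own. Among the 12 PWBC libraries of station B, 3 stood apart from the other 9, and they were selected on measured values: over 1% of their counts fell on genes that the study's own filtered station B table does not hold. The 3 were SL253804 and SL253811, both from non-pregnant heifers, and SL253808, from an AI-pregnant heifer. They are 3 of 23 libraries in the series, 1 library per heifer.

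All heifers were pubertal Angus x Simmental crosses that had received GnRH, a progesterone insert (CIDR) and prostaglandin for estrous synchronization, followed by fixed-time artificial insemination (AI), and blood was drawn at AI. The 12 heifers of station B were 6 AI-pregnant and 6 non-pregnant animals. The 11 of station A were 6 AI-pregnant animals and 5 NB-pregnant ones, which conceived later from a bull. Pregnancy was diagnosed after the blood had been drawn, so the outcome names describe what followed and not a state or treatment at sampling.

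The full station B table holds 24616 genes and the filtered one keeps 10832 of them, which leaves 13784 genes for the selecting share. SL253804 had 1.76% of its counts on those genes, SL253808 2.27% and SL253811 3.18%. Among the other 9, SL253813 came closest to the limit with 0.167%, the median was 0.138% and SL253805 had the least, 0.106%. No library lay between 0.167% and 1.76%. As the filtered table retains a gene only above 1 CPM (counts scaled to a library total of 1000000) in 6 or more libraries, a gene present in 3 libraries cannot enter it. The difference in this share is the criterion itself and was not tested.

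The total count was not itself the criterion, but it is the denominator of the selecting share and of CPM. The test below is therefore not independent of the choice. SL253804 had 13010572 read pairs on genes, SL253808 had 8487350 and SL253811 had 20434401. The other 9 ranged from 5577129 to 9330573 with a median of 7384922. SL253808 fell within the range of the 9, and SL253804 and SL253811 lay above it. The means were 13977441 ± 6031926 (SD, n = 3) and 7662442 ± 1389253 (SD, n = 9). They differed by a two-sided exact permutation test over the 220 ways to choose 3 of 12 (p = 0.0364). Without SL253804, or without SL253811, the same exact test gave p = 0.145. A level of 1 CPM therefore rested on about 8.49 to 20.4 read pairs in the 3 libraries and 5.58 to 9.33 in the 9.

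The classes crossed the pregnancy outcome. Of the 3 heifers, 2 were non-pregnant and 1 was AI-pregnant, and of the 9, 4 were non-pregnant and 5 AI-pregnant (Fisher's exact test, two-sided, p = 1). With 3 heifers in a class, this test can detect only extreme imbalance.

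More genes were detected in the 3 libraries. SL253804 had 12166 genes above 1 CPM, SL253808 had 12354 and SL253811 had 12394, against 9970 to 10905 in the other 9 (median 10636). The gap was also present at equal depth. When each library was reduced by calculation to 4826003 counts, the smallest total of either station, 14756 to 15036 genes were expected with at least 1 count in the 3 libraries and 13021 to 13945 in the 9. Station A libraries, which played no part in choosing the classes, had 14201 to 15080 genes on that scale. The 100 most abundant genes took 14.6% to 15.6% of the counts in the 3 libraries, 16.4% to 19.3% in the 9 and 13.1% to 29.4% in station A. Since the criterion read counts of the same table, these numbers are descriptions.

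Levels were compared over the 12605 genes with more than 1 CPM in 3 or more of the 12 libraries. In 5224 genes (41.4% of those tested) each of the 3 libraries was above each of the 9, and in 3587 (28.5%) each was below. The other 3794 overlapped. With at least a 2-fold difference in mean CPM required as well, 4844 genes (38.4%) were higher and 2510 (19.9%) were lower in the 3 libraries. The libraries were chosen on counts of the same genes, so no test was made and nothing is read from these shares. Of the 12605 genes, 1773 are absent from the filtered table. All 3 libraries were above all 9 in 1428 of those and below in 11. The counts of these genes were part of the selecting share, so this split follows largely from the choice of the libraries.

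Both directions differed in size. The log2 ratio of mean CPM (3 over 9) had a median of 0.19 (-0.15 under the study's filter), its 5th and 95th percentiles were -1.61 and 6.10, and its 1st and 99th were -2.01 and 8.22. Ratios above 3 on the log2 scale occurred in 2762 genes, above 5 in 1171 and above 8 in 160. Downward, 3047 genes lay under -1 but 130 under -2 and 10 under -3. The lower genes thus formed a narrow peak and the higher genes a long tail. The 3 libraries were chosen for a high share on genes that the filtered table lacks, so part of this tail is built into the choice.

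**Figure D1:**
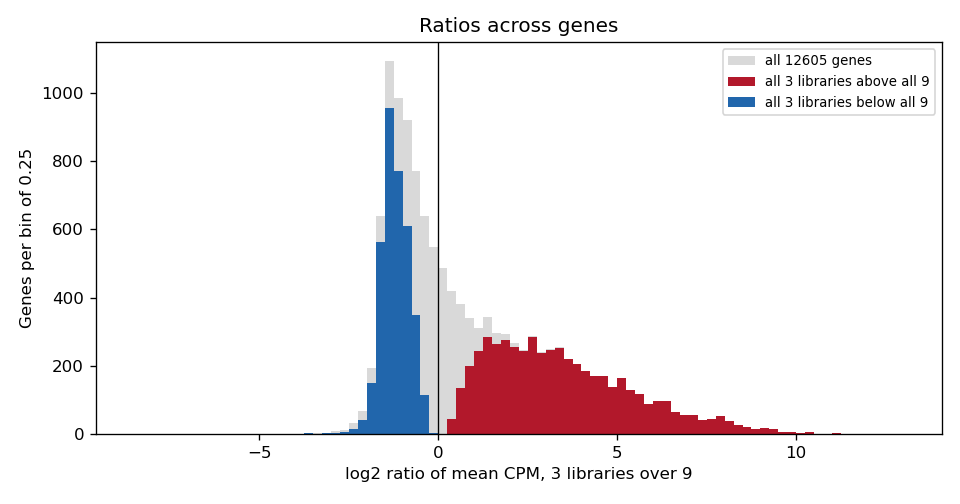
Number of genes per bin of 0.25 (y axis) by log2 ratio of mean CPM, 3 libraries over 9 (x axis), with all 12605 genes in grey and the genes whose classes did not overlap in red (above) and blue (below). The lower genes gather between about -2 and 0, while the higher genes run past 8. Part of the upper tail is built into the choice of the 3 libraries.

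The only gene under -5 was ENSBTAG00000002290, named here after its values were seen, with a log2 ratio of -8.08 (SE 0.55). SL253804, SL253808 and SL253811 each held 1 count of it. Among the 9, SL253813 had 58.3 CPM and SL253806 37.5, but SL253803 and SL253814 had no count. Its classes therefore overlapped, and it was not among the 3587 genes. In station A it reached 5.47 CPM in SL220767 and 4.74 in SL220775 and had at most 2 counts in the other 9 libraries.

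A set of 64 genes had more than 1 CPM in all 3 libraries and no count at all in any of the 9. A count of 0 over the 9 together allows a level of up to 0.0435 CPM, for counting error only. The median of their mean levels in the 3 libraries was 3.41 CPM and the highest 30.7. In station A, 54 of the 64 exceeded 1 CPM in at least 6 libraries, 27 did so in all 11, and each did so in at least 1. A wider set of 1119 genes was above 1 CPM in all 3 libraries and at or under 1 CPM in all 9, and 27 genes had the reverse pattern. The 64 and the 1119 genes exceed 1 CPM in only 3 libraries, so the filtered table lacks them. Their counts were part of the selecting share, and the contrast with the 27 follows largely from the choice of the libraries. Most genes were nevertheless detected everywhere, with 9135 above 1 CPM in all 12.

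Expressed as shares of a library, the 4844 higher genes took 38.0% of the counts in SL253804, 40.2% in SL253808 and 48.4% in SL253811. They took 4.30% (SL253805) to 8.83% (SL253810) in the 9, with a median of 7.34%. The 2510 lower genes made up 19.0%, 18.2% and 13.4% of the 3 libraries in the same order, and 37.6% to 47.2% of the 9. Both sets were defined by these same levels, so the separation of the 3 from the 9 was fixed in advance. Gene by gene, the median lower gene stood at 43.3% of the mean of the 9 in SL253804, at 41.0% in SL253808 and at 30.6% in SL253811, and at 19.7% to 41.7% in the station A libraries. The overlapping genes held shares with overlapping ranges, 22.04% to 24.6% in the 3 and 23.6% to 28.9% in the 9. Because CPM is relative to the library total, a large share gained by one set lowers the values of all other genes, and a lower level cannot be told apart here from dilution. The same holds for cell types: fewer cells of a type and less RNA per cell cannot be told apart in bulk PWBC.

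**Figure D2:**
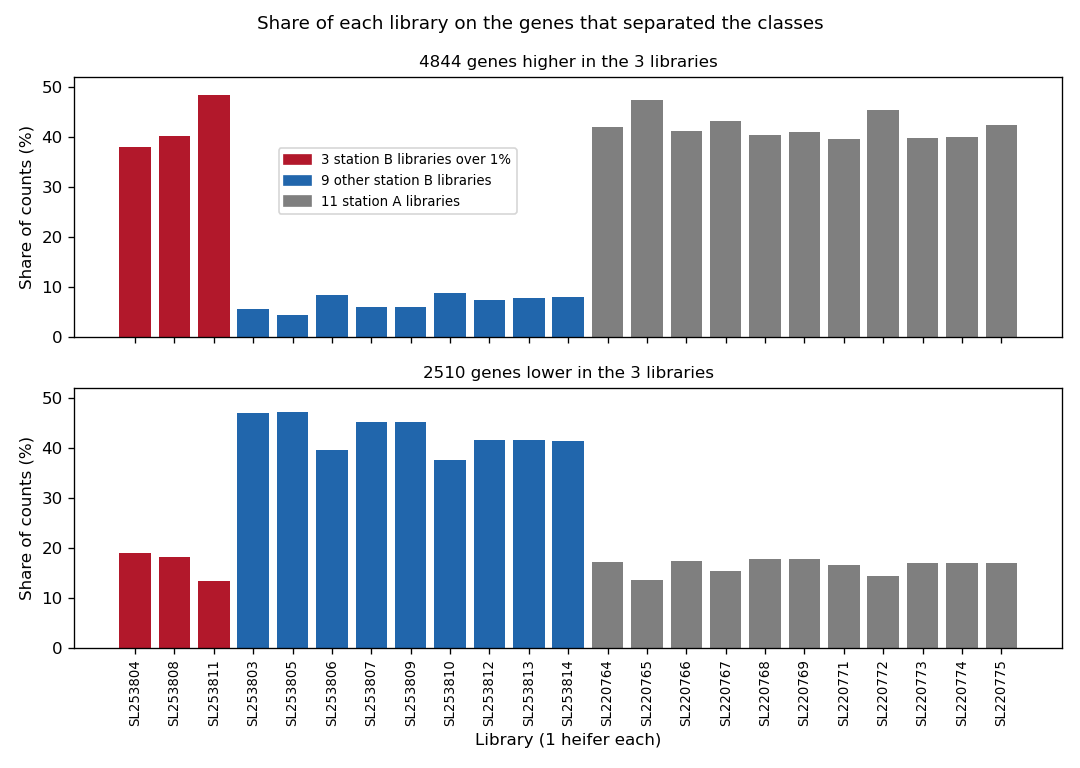
Share of each library's counts (y axis, percent) on the 4844 higher genes (upper panel) and the 2510 lower genes (lower panel), 1 bar per library, coloured by class. The 3 libraries and the 11 station A libraries stand at 38.0% to 48.4% in the upper panel and the 9 others under 9%, and the order is turned in the lower panel. The sets were defined by the levels in the 3 and the 9, so the separation of these classes was fixed in advance.

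Station A comes in count tables of its own, and the station cannot be told apart from anything else that differed between the sites, so its values stand beside the others without a test. On the higher genes its 11 libraries had 39.6% to 47.5% of their counts, and on the lower genes 13.5% to 17.9%. On the higher genes SL253808 lay within this range, SL253804 below it and SL253811 above it. On the lower genes SL253811 lay just below it and the other 2 above it. Neither range met that of the 9. On the overlapping genes station A had 21.7% to 24.1%.

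Library likeness was described by Spearman's rho of CPM across the 12605 genes, which are not independent replicates and which share each library's depth. They include the 1773 genes that the filtered table lacks, 1428 of them with all 3 libraries above all 9. The counts of these genes were part of the selecting share. The distance of the 9 from the 3 is therefore partly built into the choice, and their distance from station A rests partly on the same genes. Pairs among the 3 had rho of 0.962 to 0.980 and pairs among the 9 had 0.965 to 0.987. Pairs of 1 of the 3 with 1 of the 9 ranged from 0.524 to 0.775, with a median of 0.696. Pairs of 1 of the 3 with a station A library had 0.832 to 0.984 (median 0.926), and pairs of 1 of the 9 with a station A library 0.466 to 0.743 (median 0.632). SL253804 was the nearest of the 3 to the 9, with a median rho of 0.750, followed by SL253808 with 0.719 and SL253811 with 0.625. The first principal component of station A, which took 77.9% of its variance, was nearly unrelated across genes to the ratio of the classes (Pearson's r of -0.099, Spearman's rho of -0.096, sign of the component arbitrary).

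**Figure D3:**
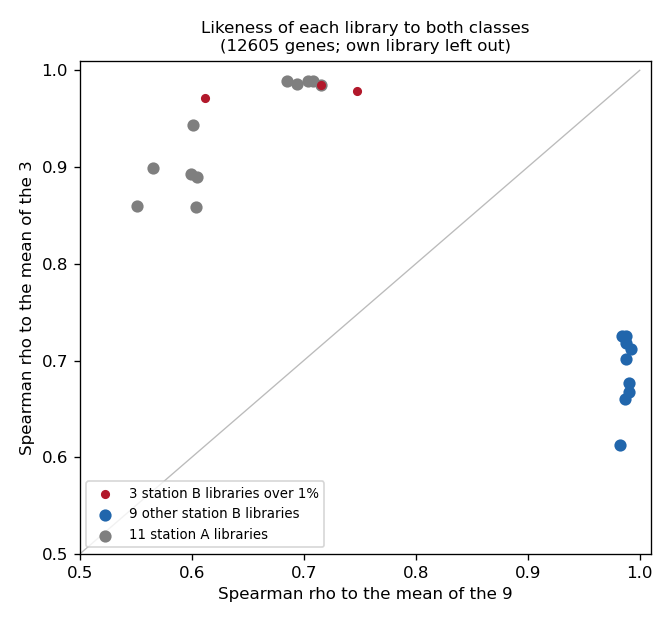
Spearman's rho across 12605 genes of each library to the mean of the 9 (x axis) and to the mean of the 3 (y axis), 1 point per library, its own library left out of the mean. The 9 sit at 0.612 to 0.726 on the y axis, and all station A libraries sit above the diagonal at 0.858 to 0.989 with the 3. Part of the distance between the 3 and the 9 is built into the choice of the libraries.

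The genes furthest apart were looked at in the 9 libraries one by one. They are the 645 higher genes with a log2 ratio over 5 and a mean over 20 CPM in the 3 libraries, a set that was chosen for its low level in the 9. Summed over the set, the 9 had 0.460% (SL253805) to 2.19% (SL253806) of the mean level of the 3. The set was thus low but seldom empty: the number of its genes without a count ran from 31 in SL253813 to 201 in SL253805, with a median of 59. Within the 3, the median gene stood at 68.0% of the mean of the other 2 libraries in SL253804, at 90.9% in SL253808 and at 156% in SL253811. In station A the median gene was at 72.7% to 110.6% of the level of the 3.

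The low levels differed among the 9 libraries. In the 349 of the 645 genes with at least 50 counts over the 9, SL253805 was the lowest of the 9 in 263. SL253806 was the highest in 98, SL253814 in 85, SL253810 in 72 and SL253813 in 66. SL253803, SL253807 and SL253809 were the highest in 1, 1 and 2 genes. Median levels were 0.321% of the 3 in SL253805, 0.921% in SL253803, 0.956% in SL253807 and 1.06% in SL253809. SL253812 had 1.43%, SL253810 1.74%, SL253806 1.84%, SL253814 1.92% and SL253813 1.98%. Libraries of non-pregnant heifers had the highest of these medians (SL253813, SL253814 and SL253806) and also the lowest (SL253805). Those of AI-pregnant heifers lay between, at 0.921% to 1.74%. A relation to the outcome was not tested.

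**Figure D4:**
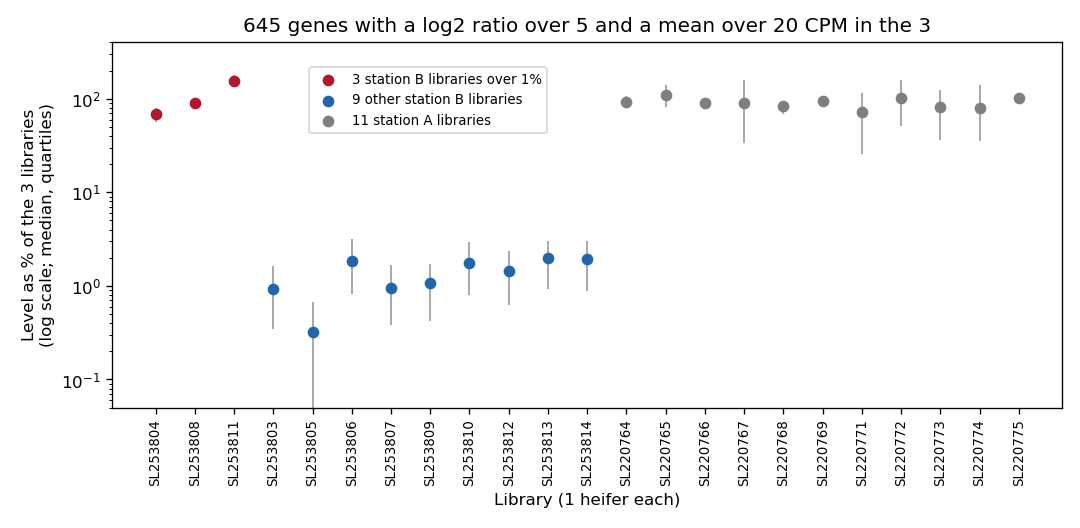
Level of the 645 genes in each library as a percent of the mean of the 3 libraries (y axis, log scale), its own library left out for the 3. Points are medians over genes and lines the quartiles, with a quartile of 0 drawn down to the axis. The 9 lie between 0.321% and 1.98%, and station A lies between 72.7% and 110.6%.

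The 3 libraries were not alike in degree. Over the 9186 genes with a mean of 10 CPM or more in the 3, the median absolute log2 difference of a library from the mean of the other 2 was 0.25 in SL253804, 0.21 in SL253808 and 0.34 in SL253811. More than 2-fold above the other 2 were 43, 29 and 165 genes in that order, and more than 2-fold below were 227, 94 and 166. SL253811 was above the other 2 in 86.7% of the higher genes of this set and in 5.03% of the lower genes. It also had the largest total and the largest selecting share of the 3, and the part of depth in this was not tested. Among the 9, over 7120 genes, 45 (SL253813) to 522 (SL253805) genes were more than 2-fold from the mean of the other 8.

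Whether the gene sets rested on 1 library was looked at by choosing them again without each library in turn. The library left out fell on the side of its own class in 98.2% to 99.3% of the higher genes when it was 1 of the 3, and in 99.1% to 99.96% when it was 1 of the 9. For the lower genes the shares were 93.0% to 98.00% and 96.5% to 99.8%. Each library had taken part in the choice of the classes, so these shares are descriptions as well. The filter on low levels still used all 12 libraries. When 1 of the 3 was left out, the 1119 genes above 1 CPM in the 3 alone stayed in only through it. Their side was thus fixed in advance. They were part of the 4928 (SL253804), 4958 (SL253808) and 4838 (SL253811) higher genes chosen without that library. Gene length differed little between the sets: the median was 1961 bases over all genes tested with a length, 1873 for the higher, 2170 for the lower and 1857 for the 645 genes.

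By the fixed rule, the genes at both ends with a mean of 10 CPM or more over the 12 libraries are given by identifier, as no name was available for them. ENSBTAG00000047958 had 33.6 CPM in SL253804, 56.0 in SL253808 and 72.8 in SL253811, and 1 count over the 9 libraries, in SL253810. The pooled levels were 57.2 and 0.0145 CPM, a ratio of 3947 with an exact 95% counting interval of 708 to 155964, as 1 count fixes the lower level poorly. Its level in station A was 41.9 to 105.9 CPM. ENSBTAG00000007375 had 10.1, 52.2 and 70.8 CPM in the 3 libraries and 1 count over the 9, in SL253814, for a pooled ratio of 3324 (95% interval 596 to 131345). In station A it had 7.90 to 45.7 CPM.

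At the same minimum mean of 10 CPM, the lowest ratios among genes that did not overlap were nearer to 0. ENSBTAG00000023416 had 6.38, 4.48 and 3.87 CPM in the 3 libraries and 9.82 to 63.2 in the 9 (median 39.4), a log2 ratio of -2.87 (SE 0.33). Station A had 4.88 to 36.7 CPM, with SL253808 and SL253811 below that range and the median of the 9 above it. ENSBTAG00000012966 had 7.15, 9.66 and 4.70 CPM and 23.0 to 63.0 in the 9 (median 33.7), a log2 ratio of -2.39 (SE 0.34). In station A it had 2.55 to 10.1 CPM, below all of the 9.

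The 24 genes that the study pairs with identifiers in its lists of outcome genes could be followed by name. The study chose them for a difference between outcomes in these same libraries, so they are not independent evidence of any direction. All 24 were tested. In 4 (16.7%, beside 41.4% of all genes tested) all of the 3 libraries were above the 9, in 1 (4.17%, beside 28.5%) all were below and 19 overlapped. Without SL253808, 7 were above, and without SL253804, SL253807 or SL253811, 2 were below. In station B's own list of 6 genes 0 were above and 0 below, beside the same 41.4% and 28.5%. Those shares over all genes include the 1773 genes that the filtered table lacks, 1428 of them above, whose counts were part of the selecting share. Of the 24, 22 pass the study's filter, with 3 above and 1 below, so the shares over all genes are not a like background. The median log2 ratio of the 24 was 0.29, beside 0.19 over all genes tested, and 14 had a ratio above 0. Neither median was stable: under the study's filter of 6 libraries they were 0.088 and -0.15. Without SL253811 they were 0.11 and -0.073, and without SL253804 or SL253808 the median over all genes was -0.11. Without SL253805 the median of the 24 was 0.17.

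TPPP (ENSBTAG00000047116), which promotes the assembly of microtubules, had the widest separation. Its level was 3.15 CPM in SL253804, 10.1 in SL253808 and 4.01 in SL253811. In the 9 libraries it had 4 counts in all, with 5 libraries at 0 and the highest, SL253806, at 0.179 CPM. The pooled ratio was 85.9 with an exact 95% counting interval of 33.1 to 318. Station A libraries had 0.547 to 10.5 CPM, all above the 9.

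PPP1R1B (ENSBTAG00000006035) encodes DARPP-32, an inhibitor of protein phosphatase 1. It had 86.2, 133 and 102 CPM in the 3 libraries, and 0.472 (SL253803) to 65.4 (SL253806) in the 9 with a median of 22.1, a log2 ratio of 2.24 (SE 0.47). The 9 were widely spread, with SL253803, SL253814 and SL253810 under 5 CPM. Station A ranged from 6.93 to 210 CPM. SIGLEC14 (ENSBTAG00000035868), a sialic acid-binding receptor of myeloid cells, had 3.23, 5.42 and 10.5 CPM in the 3 and 0.709 to 2.96 in the 9 (median 1.61), a log2 ratio of 1.90 (SE 0.52). SL253804 lay just above the highest of the 9, SL253814.

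ALDH5A1 (ENSBTAG00000021902), a mitochondrial enzyme of GABA breakdown, was the only 1 of the 4 with less than a 2-fold difference. It had 48.3, 70.9 and 54.3 CPM in the 3 libraries and 23.4 to 44.1 in the 9 (median 33.0), a log2 ratio of 0.81 (SE 0.20). Station A ranged from 13.4 to 68.2 CPM, and SL253808 lay above that range. MNS1 (ENSBTAG00000000271), a structural protein of meiotic nuclei and sperm tails, was the single gene below. Its levels were 2.998, 4.48 and 1.81 CPM in the 3 and 5.45 to 11.9 in the 9 (median 8.04), a log2 ratio of -1.35 (SE 0.38). Station A had 0.927 to 6.38 CPM.

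**Figure D5:**
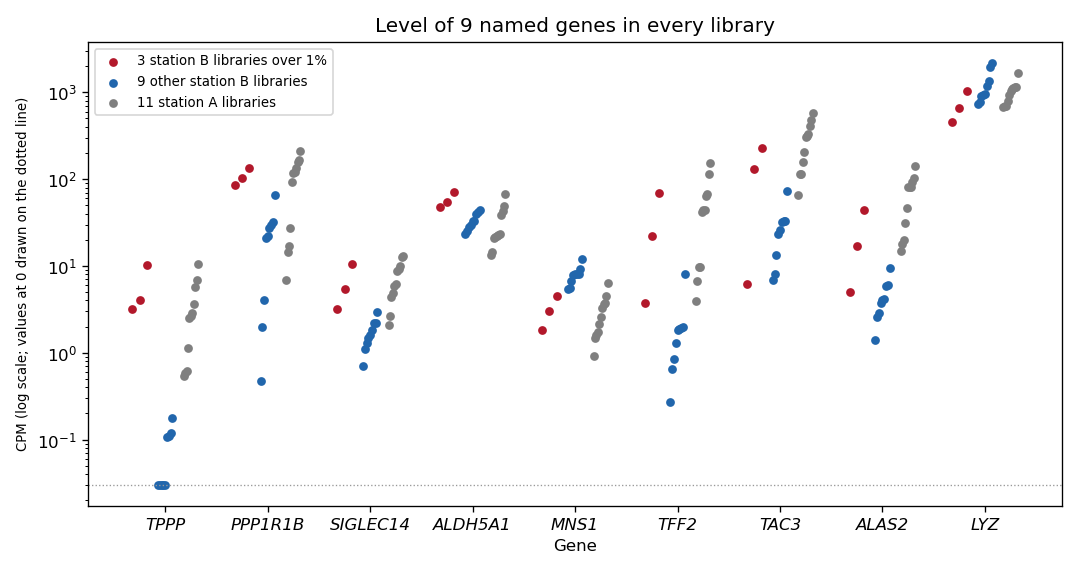
CPM (y axis, log scale) of 9 genes of the study's lists in every library, 1 point per library, with the 3, the 9 and station A side by side and each sorted by value. The 3 points of TPPP, PPP1R1B, SIGLEC14 and ALDH5A1 lie above all 9 and those of MNS1 below. For TFF2 and ALAS2 1 of the 3 points lies among the 9, and for TAC3 1 lies just under them.

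A group of 3 genes was high in the libraries of the 2 non-pregnant heifers and not in that of the AI-pregnant heifer. TFF2 (ENSBTAG00000030814), a trefoil peptide of mucosa, had 22.4 CPM in SL253804 and 69.8 in SL253811 but 3.77 in SL253808, within the 0.271 to 8.07 CPM of the 9. TAC3 (ENSBTAG00000021807), the precursor of neurokinin B, had 130.0 and 225.6 CPM in the same 2 libraries and 6.13 in SL253808, under the 6.85 to 72.3 CPM of the 9. ALAS2 (ENSBTAG00000013178), the erythroid enzyme that starts heme synthesis, had 16.8 and 44.3 CPM and 4.95 in SL253808, against 1.42 to 9.50 in the 9. These genes come from station B's list, which the study drew up by outcome, so the pattern by outcome was part of their choice. Station A libraries had 3.94 to 152 CPM of TFF2, 65.6 to 581 of TAC3 and 14.7 to 142 of ALAS2.

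TTLL1 (ENSBTAG00000012030), a tubulin-modifying enzyme, was also lowest in SL253808 among the 3, with 6.72 CPM against 35.4 in SL253804 and 43.4 in SL253811, but the 9 covered 3.64 to 38.2 CPM. The other genes of station B's list overlapped with little difference or in the other direction. LOC522763 (ENSBTAG00000001308) had 4.31 to 6.48 CPM in the 3 and 2.87 to 59.7 in the 9, where SL253814 and SL253805 alone exceeded 10 CPM. CNKSR3 (ENSBTAG00000012674), a scaffold of the connector enhancer of KSR family, had a log2 ratio of -0.13 (SE 0.59). SAXO2 (ENSBTAG00000003414), a microtubule protein of the axoneme, had one of -0.49 (SE 0.43).

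Genes with a known place in white blood cells or platelets were present in both classes. SIGLEC14, the myeloid receptor described above, lay above all of the 9, whereas the classes overlapped for the genes that follow. LYZ (ENSBTAG00000026779), the lysozyme of granules, had 1031 CPM in SL253804, 657 in SL253808 and 455 in SL253811. It had 730 to 2146 CPM in the 9 (median 959) and 684 to 1671 in station A, so SL253808 and SL253811 were below both ranges and SL253804 within them. FCER1A (ENSBTAG00000012887), the IgE-binding chain of the basophil and mast cell receptor, had 5.61, 6.48 and 11.01 CPM against 7.82 to 21.7 in the 9 (median 17.4). It overlapped only through SL253807, the lowest of the 9, and its log2 ratio was -1.14 (SE 0.34). P2RY12 (ENSBTAG00000015837), the ADP receptor of platelets, had 1.66 to 4.24 CPM in the 3 and 2.57 to 18.9 in the 9.

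BOLA-DQB (ENSBTAG00000021077), a class II antigen-presenting molecule with near-identical relatives in the genome, is uncertain in its counts. It had 33.3, 31.3 and 4.55 CPM in the 3 libraries and 0.406 to 32.4 in the 9, where the median was 0.993. KIR3DL1 (ENSBTAG00000047971), a receptor of natural killer cells from another multigene family, had 0.615 to 1.13 CPM in the 3 and 0 to 2.12 in the 9. These 5 genes and SIGLEC14 do not amount to a marker list. Markers of blood cell types, red cells and platelets were not analysed here for want of names, and their part in the difference between the classes was not tested.

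The remaining 7 genes overlapped. ANG (ENSBTAG00000045492), a secreted ribonuclease, had a log2 ratio of 0.49 (SE 0.41), LOC618633 (ENSBTAG00000040580) 0.86 (SE 0.36) and DMBT1 (ENSBTAG00000022715), a scavenger receptor of mucosal defence, 0.17 (SE 0.54). UGT8 (ENSBTAG00000004574), which makes galactosylceramide, had -1.45 (SE 0.47), as its 9 libraries spread from 1.43 to 21.96 CPM. GSTM3 (ENSBTAG00000001842), a glutathione transferase, had -0.87 (SE 1.17) and ADAM20 (ENSBTAG00000038377), a testis-expressed protein of the ADAM family, -0.72 (SE 0.45). LOC107131247 (ENSBTAG00000047764) had nearly the same mean in both classes, 28.2 and 28.1 CPM, with single libraries from 2.23 to 68.5 in the 3 and from 0 to 128 in the 9.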

How the data were processed

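RNA of PWBC was sequenced by the authors from a poly(A)-selected, strand-marking library (paired-end), aligned to the bovine genome UMD3.1 (the aligner is not given in the sources used here), and filtered for pairs with several alignments, many mismatches or duplicates. The authors deposited counts of read pairs per Ensembl gene (HTSeq), one full and one filtered table per station. They also deposited FPKM values, from which only gene lengths were derived here.

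The members and gene lists were chosen with earlier results of these data known. CPM was computed on library totals without normalization factors. A gene was tested in the sense of being compared if it exceeded 1 CPM in 3 of the 12 libraries. The log2 ratio is that of mean CPM, with a delta-method standard error. Genes at 0 in a class took a floor of 3 counts over the class. Gene differences carry no p, since the classes were set by counts of the same table. The exact permutation test and Fisher's exact test were used for depth and outcome. Replicates are separate heifers with 1 library each, and no pair of libraries agreed within sampling noise. Named genes are the 24 that the study pairs with identifiers and 2 identifiers at each end of the ratio among non-overlapping genes with a mean of 10 CPM. The reference table matched 0 of the identifiers, so marker and pathway lists were not analysed here. Intervals cover counting error only.

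Alternatives were TMM factors (edgeR 4.0.16), DESeq2 1.42.0 size factors, other filters, folds and thresholds, and leaving out each library. Work was done in R 4.3.3 and Python 3.11.15 (scipy 1.17.1, pandas 2.3.3). The scripts were tested on simulated data.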

Additional observations from a re-analysis of the deposited data

Results flagged for a closer look

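Within the 9 libraries, 28 named genes and 7 measures of the libraries were searched for a single library far from the other 8. The rule was Dixon's test of the gap to the nearest library, on untransformed values, and 11 were found, all of them genes. Chance passes it in about 1 of 20 groups only where values are normally distributed. That was not tested for CPM, so the number of flags is not read against this rate. SL253814 was the high library for P2RY12 (18.9 CPM, the other 8 between 2.57 and 7.42), TAC3 (72.3 CPM, the others at most 33.3), CNKSR3 (5.50 CPM, the others at most 2.51) and ENSBTAG00000007375 (0.141 CPM, which is 1 count, the others at 0). SL253806 was high for PPP1R1B (65.4 CPM, the others at most 31.7) and TFF2 (8.07 CPM, the others at most 1.97). SL253807 was high for LOC107131247 (128 CPM, the others at most 50.8) and low for FCER1A (7.82 CPM, the others at least 14.9). SL253810 was high for GSTM3 (7.50 CPM, the others at most 3.71) and ENSBTAG00000047958 (0.110 CPM, which is 1 count, the others at 0), and SL253812 for DMBT1 (4.33 CPM, the others at most 2.26). ENSBTAG00000047958 and ENSBTAG00000007375 were named for their high ratios over the 9. With 1 count in 1 library and the other 8 at 0, they pass this rule by construction.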

How the results depend on the processing

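The counts of 4844 higher and 2510 lower genes stayed within 1.5 times under other scalings, filters and left-out libraries (3719 to 4907 higher and 2249 to 2882 lower without 1 library). The exception was a 4-fold minimum, which left 71 lower genes. TMM factors moved the median log2 ratio of all genes by -0.12, to 0.072, and gave 4700 higher and 2959 lower genes, of which 4698 and 2508 were shared with the CPM scale. The median over all genes was 0.40 without a filter and -0.15 under the study's filter of 6 libraries, which removes the 1773 genes described above. Without 1 library it ran from -0.11 to 0.22, and it was below 0 without SL253804, SL253808 or SL253811, where genes above 1 CPM in those 3 alone fail the filter (11459 to 11474 genes tested in place of 12605). For the 24 study genes the median was 0.20 with TMM factors, 0.32 with DESeq2 size factors and 0.088 under the study's filter, and 0.11 to 0.40 without 1 library, with 3 to 7 genes above and 1 to 2 below. The median was lowest without SL253811, 7 genes were above without SL253808, and 2 were below without SL253804, SL253811 or SL253807. A limit of 0.5% gave 3 members and one of 2% gave 2. When the share was taken on genes above 1 CPM in fewer than 6 of all 23 libraries, 0 libraries passed 1%, and the highest had 0.106%. In read pairs behind 1 CPM, the difference in total counts was 3.09 to 9.06 without 1 library, with an exact permutation p from 0.0364 to 0.145, above 0.05 without SL253804 or SL253811. The difference in the share of non-pregnant heifers was 22.2 percentage points and 5.56 to 55.6 without 1 library (Fisher's exact p from 0.455 to 1). The share on the most abundant genes differed (3 minus 9) by -2.80 points for the top 100 and by -5.09 for the top 500. The median level of the 645 genes in station A was 90.5% of the 3 and 103.6% with TMM factors over both stations. No named gene whose classes did not overlap changed direction under TMM factors or DESeq2 size factors. Other filters and left-out libraries could not reverse such a gene, as its 3 libraries lie wholly on 1 side of the 9. TPPP, ENSBTAG00000047958 and ENSBTAG00000007375 could be compared in only 12 of the 16 alternatives. No paired analysis applied, as each library comes from a separate heifer. Depth limits the ratios of genes with few counts in the 9 libraries, and 3 heifers limit every statement about their class.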
